A study of Mus musculus with 8 samples.

Results

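The nuclear genes for respiratory complexes II to V and for cytochrome c were followed from homogenate RNA to ribosome-bound RNA of AgRP neurons in the mouse hypothalamus. Members were the rows whose symbol was Sdha to Sdhd, Sdhaf1 to Sdhaf4, Cyc1, Cycs, or began with Uqcr, Cox4i, Cox5, Cox6, Cox7, Cox8 or Atp5, with at least 10 counts in at least 4 of the 8 libraries. The names matched 53 rows, of which 49 met the count minimum, out of 45706 rows in the table and 17102 rows that met the same minimum. There were 8 members for complex II, 9 for complex III, 1 for cytochrome c, 14 for complex IV and 17 for complex V. The 4 rows below the minimum all belonged to complex IV (Cox4i2, Cox7b2, Cox8b and Cox8c), and 4 rows named as pseudogenes (-ps) were left out. All 49 members passed the filter on low counts and were tested.

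Complex II oxidises succinate and passes electrons to ubiquinone, complex III passes them on to cytochrome c, and complex IV reduces oxygen. Complex V, the ATP synthase, uses the proton gradient that complexes III and IV help to build, so neurons depend on the set for ATP. Complexes III, IV and V join products of mitochondrial DNA to nuclear-encoded subunits, which are either catalytic or core parts or small accessory (supernumerary) parts, whereas complex II is nuclear-encoded throughout.

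Translating ribosome affinity purification pulls GFP-tagged ribosomes out of a tissue homogenate, so that the RNA on the beads (the immunoprecipitate, IP) can be set against the homogenate (input). All 8 libraries, 4 IP and 4 input, came from random-fed mice of 1 genotype, with Mff fl/fl, AgRP-IRES-Cre tg/wt and RpL10a-GFP fl/wt. Each library was a pool of 3 mice of mixed sexes, aged 11 to 12 weeks. The same Cre at Agrp removes Mff, a mitochondrial fission factor, and switches on the ribosome tag, so IP describes Mff-deleted AgRP cells, and libraries with intact Mff are not analysed here.

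Library totals ran from 39902127 to 74607637 estimated counts. All 10 listed AgRP neuron markers were higher in IP, with a summed level of 120.4 to 135.1 CPM (counts scaled to a library of 1000000) in input and 3389 to 4945 CPM in IP. Of the astrocyte markers 8 of 8 were lower (2634 to 3282 CPM in input, 789.4 to 1077 in IP), as were 8 of 8 for oligodendrocytes (2111 to 2663, 605.6 to 883.9). The same held for 7 of 8 for microglia (62.03 to 76.28, 22.93 to 28.06) and 10 of 12 for other hypothalamic neurons (677.8 to 783.4, 226.9 to 294.6). Of the endothelial and mural markers only 2 of 8 were lower (34.52 to 41.56, 11.49 to 29.13), and 6 were called neither higher nor lower. Over all genes tested, 24.5% were higher and 20.9% lower in IP. No marker of these lists was at 0 in all IP libraries. These shifts moved with every difference below, and their part in it was not tested.

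The members made up a larger share of the ribosome-bound RNA than of the homogenate RNA. Their share of all counts was 0.6281%, 0.656%, 0.6543% and 0.661% in input libraries 1 to 4, and 1.043%, 1.024%, 1.06% and 1.03% in IP libraries 1 to 4. Every IP library thus lay above every input library. Summed over members, the level was 6739.5 ± 161 CPM in input and 10045 ± 272 CPM in IP (mean ± SD, n = 4 each, on TMM-scaled library sizes), a ratio of 1.49. The ratio of summed levels was 1.946 for complex IV, 1.675 for complex III, 1.255 for complex V, 1.151 for complex II and 1.154 for cytochrome c. A share of RNA is relative, and in bulk samples fewer cells of a type and less RNA per cell cannot be told apart.

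By edgeR's quasi-likelihood test over 17000 genes, 36 of the 49 members were higher in IP at an adjusted p under 0.05, against 24.5% of all genes tested. Another 3 were lower (Uqcrc1, Atp5b and Cox6b2), against 20.9% of all genes, and 10 did not pass. The median log2 fold change (IP over input) was 0.55 over members and -0.01 over all genes. With a further demand of at least a 2-fold change, 14 members were higher and 1 lower, against 8.37% and 12.3% of all genes. Seen without a model, 35 members had all 4 IP libraries above all 4 input libraries and 4 had them all below, against 24.1% and 24% of all genes. Other fits are named for many of the genes whose call they change. RLE and upper quartile factors are other ways to scale the libraries, and a replicate block fits a term for the library number. Length and GC offsets remove from each library its smooth trend of level with transcript length and GC content.

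**Figure D1:**
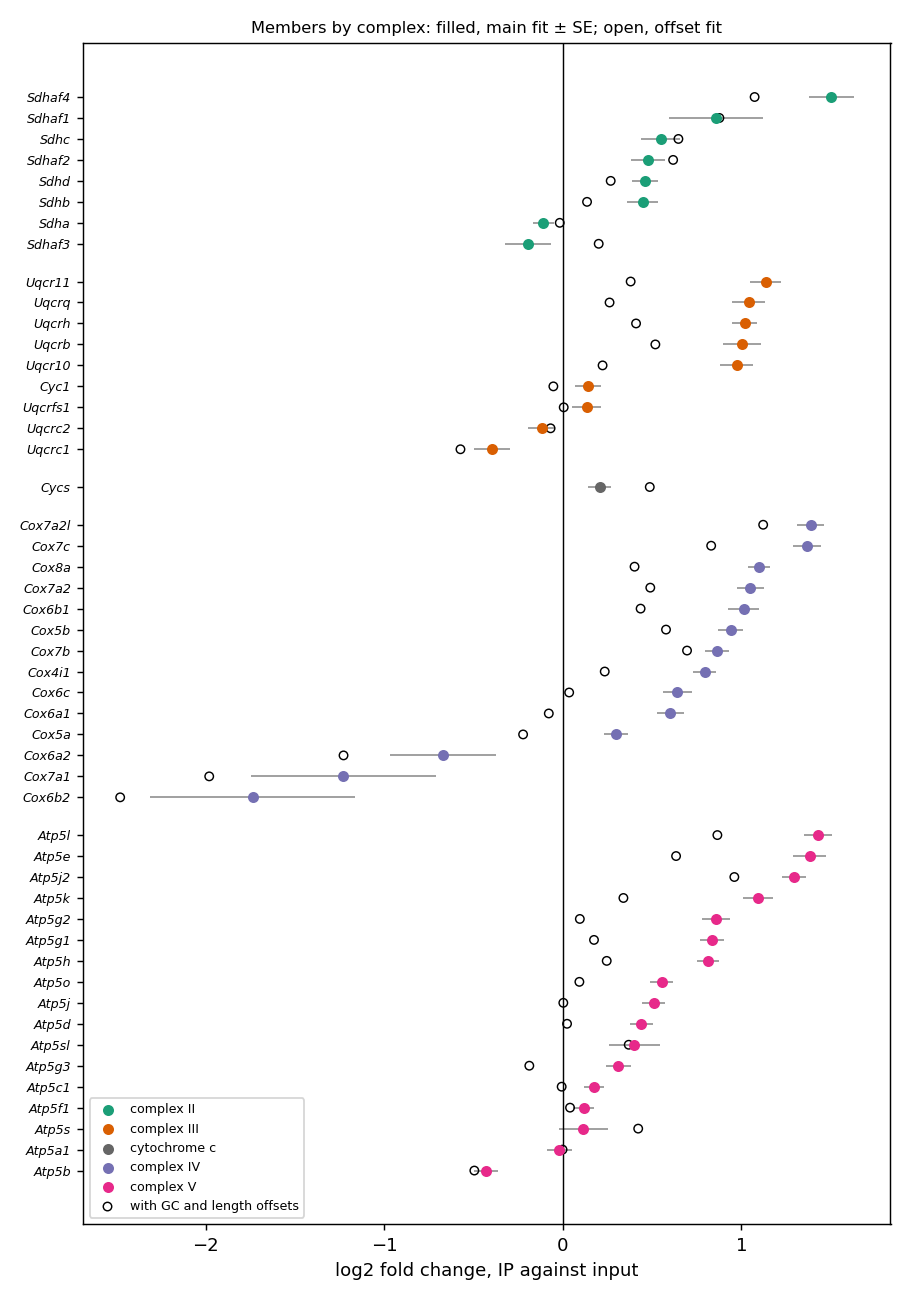
Log2 fold change of each member (IP over input, x axis), grouped by complex, with bars of 1 standard error of the edgeR fit on 4 IP and 4 input libraries. Filled points run from 1.50 for Sdhaf4 to -1.74 for Cox6b2. Those near or below 0 include Sdha, Uqcrc1, Uqcrc2, Cyc1, Uqcrfs1, Atp5a1 and Atp5b, and also Sdhaf3, Cox6a2, Cox7a1, Atp5f1 and Atp5s. Open points show the fit with length and GC offsets.

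In complex II, 6 of 8 genes were higher in IP and none lower, against 24.5% and 20.9% of all genes. The median log2 fold change was 0.47. The main catalytic gene of complex II was not among the higher genes. Sdha, the flavoprotein that oxidises succinate (chromosome 13, 74322254 to 74350280, minus strand, GRCm38), stood at 361.7, 368.4, 347.6 and 339.5 CPM in input and at 333.5, 317.6, 347.9 and 315.4 CPM in IP. The ranges overlapped, and its log2 fold change of -0.11 ± 0.06 (SE) did not pass (adjusted p = 0.159). It passed as lower with upper quartile scaling (-0.24) and with DESeq2 (-0.14).

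The other complex II subunits were higher. Sdhb, the iron-sulfur subunit, stood at 67.62, 72.2, 65.65 and 70.11 CPM in input and at 105.8, 100.6, 85.02 and 84.41 CPM in IP (log2 fold change 0.45 ± 0.09, adjusted p = 0.00158), and did not pass with length and GC offsets (0.14). Sdhc and Sdhd, which anchor the enzyme in the inner membrane and hold its haem, had log2 fold changes of 0.55 ± 0.11 (adjusted p = 0.00173) and 0.46 ± 0.07 (adjusted p = 0.000335). For all 3 the IP libraries lay above the input libraries.

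Assembly factors of complex II moved unequally. Sdhaf4, which binds the flavinylated Sdha before assembly, had 11.56, 10.59, 11.83 and 10.31 CPM in input and 38.09, 28.99, 29.24 and 29.32 CPM in IP. All IP libraries were above all input libraries, and its log2 fold change of 1.50 ± 0.13 (adjusted p = 2.7e-06) was the highest of the 49 members in this fit. Without IP 1 it was 1.40, below Atp5l (1.46), and with length and GC offsets it was 1.07, below Cox7a2l (1.12). Sdhaf2, needed to attach the flavin to Sdha, rose from 29.139 ± 0.6471 to 40.53 ± 4.237 CPM (0.48 ± 0.09, adjusted p = 0.00172). Sdhaf1, which helps to place the iron-sulfur clusters of Sdhb, had 4.823, 3.897, 4.773 and 5.214 CPM in input and a wide 8.617, 5.313, 12.72 and 7.191 CPM in IP. Its log2 fold change of 0.86 ± 0.26 passed (adjusted p = 0.0193), but not without input 2 (0.79, adjusted p = 0.0614). Sdhaf3, another factor of iron-sulfur assembly, had 24.4 ± 1.035 CPM in input and 21.298 ± 3.672 CPM in IP and did not pass (-0.20 ± 0.13, adjusted p = 0.249; 0.20 with length and GC offsets).

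Complex III divided by role: all 5 supernumerary genes were higher in IP, and none of the 4 core or catalytic genes was, beside 24.5% of all genes. The split was also one of transcript length, 405 to 547 bases for supernumerary genes and 1363 to 1896 for the others. With length and GC offsets the supernumerary median log2 fold change was 0.38 instead of 1.02, beside -0.32 for core and -0.02 for catalytic genes. Whether the split followed role or length was not tested. Uqcrc1, a core protein facing the matrix (chromosome 9, 108936633 to 108949623, plus strand), stood at 67.75, 78.26, 61.46 and 70.11 CPM in input and at 59.65, 54.49, 50.97 and 45.74 CPM in IP. Every IP library lay below every input library, and it fell by 0.40 ± 0.10 on the log2 scale (adjusted p = 0.0078). Its partner core protein Uqcrc2 had 85.263 ± 1.516 CPM in input and 78.555 ± 6.429 CPM in IP, with overlapping ranges (-0.12 ± 0.07, adjusted p = 0.222). With upper quartile scaling Uqcrc2 passed as lower (-0.25).

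The genes for the electron-carrying subunits of complex III also had overlapping ranges. Cyc1, cytochrome c1, stood at 73.37, 79.42, 72.59 and 72.97 CPM in input and at 88.7, 79.24, 85 and 76.18 CPM in IP (0.14 ± 0.07, adjusted p = 0.139). Uqcrfs1, the Rieske iron-sulfur protein, had 55.505 ± 3.663 CPM in input and 60.92 ± 4.547 CPM in IP (0.13 ± 0.08, adjusted p = 0.218). Both passed as higher when library totals alone set the scale (0.24 for Cyc1 and 0.23 for Uqcrfs1).

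The supernumerary genes of complex III were about doubled. Uqcrh, the hinge protein at which cytochrome c docks (chromosome 4, 116066965 to 116075071, minus strand), stood at 173.1, 160.3, 185.9 and 181.2 CPM in input and at 365.4, 324.7, 355.7 and 373.7 CPM in IP. The lowest IP library was well above the highest input library, with a log2 fold change of 1.02 ± 0.07 (adjusted p = 6e-07). Uqcr11 rose by 1.14 ± 0.09, Uqcrq by 1.04 ± 0.09, Uqcrb by 1.00 ± 0.11 and Uqcr10 by 0.97 ± 0.09. For each of these 4 small subunits the IP and input libraries did not overlap, with adjusted p from 1.4e-06 for Uqcr11 to 2e-05 for Uqcrb.

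Cycs, the soluble carrier between complexes III and IV, was slightly higher. It stood at 126, 125, 130.9 and 134.5 CPM in input and at 146, 138.3, 153.9 and 157.7 CPM in IP. The libraries did not overlap, and the log2 fold change was 0.21 ± 0.06 (adjusted p = 0.0219). The call was lost without input 1 (0.20, adjusted p = 0.0572) and without input 2 (0.20, adjusted p = 0.0536). It was also lost with RLE factors (0.17, adjusted p = 0.0511), with upper quartile factors (0.07, adjusted p = 0.387) and without a gene filter (0.19, adjusted p = 0.0587), whereas with length and GC offsets the value was 0.49.

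In complex IV, 11 of 14 genes were higher in IP and 1 was lower, against 24.5% and 20.9% of all genes. Another 2 did not pass, and the median log2 fold change was 0.83. The complex's catalytic subunits are encoded in mitochondrial DNA, and all 14 members are nuclear accessory subunits or, for Cox7a2l, a factor that joins complexes III and IV into supercomplexes. Cox7a2l (chromosome 17, 83501918 to 83517330, minus strand) stood at 190.6, 189.1, 211.5 and 187.5 CPM in input and at 562.6, 455.1, 505.1 and 518.1 CPM in IP. All IP libraries were more than 2 times the highest input library, and the log2 fold change was 1.39 ± 0.08 (adjusted p = 1.1e-07).

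Cox7c, a small membrane subunit (chromosome 13, 86044816 to 86046904, minus strand), stood at 198.1, 191.1, 232.4 and 234 CPM in input and at 547.9, 535, 578.9 and 547.5 CPM in IP. Its IP values lay close together and far above input (1.37 ± 0.08, adjusted p = 1.6e-07). Cox8a, a further small membrane subunit, had 196.64 ± 10.56 CPM in input and 421.63 ± 14.48 CPM in IP (1.10 ± 0.06, adjusted p = 1.3e-07). Cox7a2 rose by 1.05, Cox6b1, on the side facing cytochrome c, by 1.01, and Cox5b, the zinc-binding matrix subunit, by 0.94. The log2 fold changes of Cox7b (0.86), Cox4i1 (0.80), Cox6c (0.64) and Cox6a1 (0.60) followed, and Cox5a, a matrix subunit, had the smallest value of those that rose (0.30 ± 0.07, adjusted p = 0.0038). Cox5a did not pass with upper quartile factors (0.16, adjusted p = 0.0659) and was lower with length and GC offsets (-0.22), with which Cox6c (0.04) and Cox6a1 (-0.08) did not pass. In each of the 11 complex IV genes that rose all IP libraries were above all input libraries.

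The remaining complex IV members were the isoforms of low level. Cox6b2, best known from testis, stood at 1.729, 1.429, 1.374 and 2.025 CPM in input and at 0.867, 0.6429, 0.1731 and 0.2766 CPM in IP. It fell by 1.74 ± 0.57 on the log2 scale (adjusted p = 0.0287), with no overlap between the fractions. The call was lost without any 1 of the 4 input libraries (adjusted p from 0.0572 without input 3 to 0.0901 without input 4) and without IP 4 (adjusted p = 0.0537).

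Cox7a1, the heart and muscle isoform, stood at 2.221, 1.78, 1.537 and 2.118 CPM in input and at 0.2654, 0.8509, 1.457 and 0.6789 CPM in IP. Every IP library was below every input library, but the log2 fold change of -1.23 ± 0.52 did not pass (adjusted p = 0.0744). It passed as lower without IP 3 (-1.68, adjusted p = 0.0138). It also passed with DESeq2 (-1.26), limma-voom (-1.39) and length and GC offsets (-1.98). Cox6a2, also an isoform of heart and muscle, stood at 3.203, 5.03, 4.679 and 4.632 CPM in input and at 3.84, 2.931, 1.774 and 2.489 CPM in IP, so that IP 1 exceeded input 1. Its value of -0.67 ± 0.30 did not pass (adjusted p = 0.0894), and passed without IP 1 (-0.87, adjusted p = 0.03). Cox6a2 also passed as lower with upper quartile factors (-0.80), DESeq2 (-0.70) and length and GC offsets (-1.23).

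The 4 complex IV rows below the count minimum had few counts anywhere. Cox4i2, the alternative form of Cox4i1, had 19, 22, 8 and 24 counts in input and 1, 2, 2 and 0 in IP. Cox7b2 had 13, 10, 7 and 15 counts in input and 0, 0, 0 and 6 in IP. Cox8b had 7, 5, 13 and 7 counts in input and 3, 3, 0 and 12 in IP, and Cox8c had 0 in all 8 libraries.

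**Figure D2:**
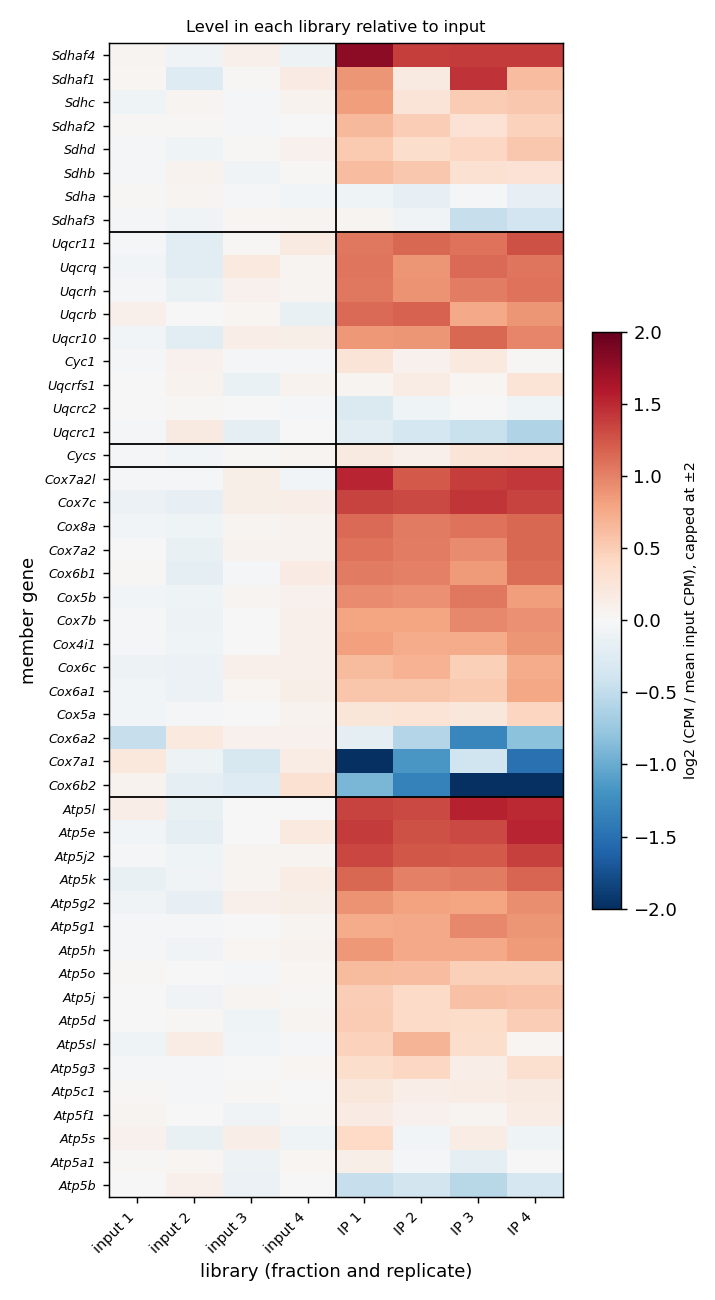
Level of each of the 49 members (rows, by complex) in each library (columns), as log2 of its CPM over its mean input CPM, with colour capped at 2 in either direction. The IP columns are red for most genes, pale for Sdha, Cyc1, Uqcrfs1 and Atp5a1 among others, and blue for Atp5b, Uqcrc1, Cox6b2 and Cox7a1.

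In complex V, 13 of 17 genes were higher in IP and 1 was lower, against 24.5% and 20.9% of all genes. Another 3 did not pass, and the median log2 fold change was 0.51. The 17 include Atp5s and Atp5sl, which are not subunits, and Atp5sl is among the 13. The genes of the catalytic head (F1) differed widely among themselves. Atp5b, the beta subunit that carries the catalytic sites (chromosome 10, 128083273 to 128090391, plus strand), stood at 984, 1051, 901.6 and 984.2 CPM in input and at 712.2, 757.3, 667.6 and 772.7 CPM in IP. Every IP library lay below every input library, and it fell by 0.43 ± 0.07 on the log2 scale (adjusted p = 0.000352).

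Atp5a1, the alpha subunit that alternates with beta in the head, had 515.39 ± 25.35 CPM in input and 508.87 ± 40.73 CPM in IP (-0.02 ± 0.07, adjusted p = 0.856). The fractions overlapped, and with library totals alone the sign turned (0.08). Atp5c1, the rotating gamma subunit, was slightly higher (0.17 ± 0.06, adjusted p = 0.0241), and its call was lost without input 2 (0.17, adjusted p = 0.0613). It was also lost with RLE factors (0.14), with upper quartile factors (0.04), without a gene filter (0.16) and with length and GC offsets (-0.01). Atp5d, the delta subunit of the central stalk, rose by 0.44 ± 0.06 (adjusted p = 0.000176; 0.02 and not past with the offsets). Atp5e, the small epsilon subunit (chromosome 2, 174461072 to 174464105, minus strand), stood at 56.82, 51.93, 59.46 and 67.13 CPM in input and at 154.4, 142.6, 147.1 and 169.5 CPM in IP. Its IP libraries were all more than 2 times the highest input library, and it rose by 1.38 ± 0.09 (adjusted p = 4.2e-07).

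The peripheral stalk, which holds the head still, held 3 higher genes of 4. Atp5h (subunit d) stood at 150.5, 146.8, 158.7 and 161.6 CPM in input and at 282.7, 260.7, 260.8 and 279.9 CPM in IP, without overlap (0.81 ± 0.06, adjusted p = 1.3e-06). Atp5o, the oligomycin sensitivity protein, rose by 0.55 ± 0.06, and Atp5j (coupling factor 6) by 0.51 ± 0.06, but neither passed with length and GC offsets (0.09 and 0.003). Atp5f1 (subunit b) had 133.72 ± 5.04 CPM in input and 144.98 ± 5.171 CPM in IP and did not pass (0.12 ± 0.06, adjusted p = 0.139), except with library totals alone (0.22).

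All 3 genes for the c-ring, the rotor in the membrane, were higher, but with length and GC offsets 0 were higher, 2 did not pass and Atp5g3 was lower (-0.19). They encode the same mature protein behind different import sequences. Atp5g1 stood at 231.9, 230.4, 238.1 and 247.3 CPM in input and at 394.2, 400, 462.8 and 436.8 CPM in IP, without overlap (0.84 ± 0.07, adjusted p = 1.9e-06). Atp5g2 rose by 0.86 ± 0.08 and Atp5g3 by 0.31 ± 0.07 (adjusted p = 0.0033; 0.18 and not past with upper quartile factors).

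The membrane supernumerary genes, whose products help the enzyme to pair into dimers, had the largest values of complex V beside Atp5e. Atp5l (subunit g; chromosome 9, 44912557 to 44920742, minus strand) stood at 127.2, 104.4, 115.4 and 116.1 CPM in input and at 296, 288.1, 337.6 and 325.7 CPM in IP. The fractions were far apart, with a log2 fold change of 1.43 ± 0.08 (adjusted p = 1.3e-07). Atp5j2 (subunit f) rose by 1.30 ± 0.07 and Atp5k (subunit e) by 1.09 ± 0.09. Atp5s and Atp5sl are named for complex V but are not subunits of it, and RefSeq lists them as Dmac2l and Dmac2. Atp5s had overlapping values and did not pass (0.12 ± 0.14, adjusted p = 0.526). Atp5sl also overlapped and passed narrowly (0.40 ± 0.14, adjusted p = 0.0406), and lost its call without any 1 input library, IP 1 or IP 2 (0.30 to 0.46, adjusted p from 0.0514 to 0.104). It was also lost with RLE factors (0.37), with upper quartile factors (0.27), without a gene filter (0.39) and with the offsets (0.37), with which Atp5s passed (0.42).

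Divided by transcript length, the levels of the genes did not stand in the same order in the 2 fractions. The same length divides both fractions, so the trend of IP over input with length stays in this order. Per kilobase of transcript, Atp5b had the highest level of the 49 members in input (511.5 ± 31.82 CPM per kb, mean ± SD, n = 4), followed by Cox6a1 (421.9 ± 30.54), Atp5g1 (397.5 ± 12.91) and Cox7c (396.1 ± 41.66). The last 3 of these did not differ beyond their spread. In IP, Cox7c was first with 1023 ± 34.63 CPM per kb, then Cox8a with 766.6 ± 26.32, Atp5g1 with 710.5 ± 54.24 and Uqcrh with 648.8 ± 39.17. The intervals of 1 SD around Cox8a and Atp5g1 overlapped, as did those around Atp5g1 and Uqcrh, and Atp5b, at 379.7 ± 24.76 CPM per kb, was in place 16. At the bottom in both fractions were Sdhaf1, Cox6b2 and Cox7a1, each under 5 CPM per kb.

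Both genes of a paralogous pair are counted in the same library, so their ratio does not depend on how libraries are scaled. These ratios carry no length and GC offsets, so trends with length and GC content remain in them. Of 9 listed pairs, 6 had both genes above the count minimum. For every 100 counts of Cox6b1, Cox6b2 had 1.241, 1.191, 1.016 and 1.315 counts in input and 0.3082, 0.2343, 0.0721 and 0.09625 in IP. The IP libraries were all below the input libraries, and the mean log2 ratio was 2.99 units lower in IP (a difference of -2.99). For every 100 counts of Cox7a2, Cox7a1 had 2.648, 2.354, 1.765 and 2.423 in input and 0.1539, 0.507, 0.9077 and 0.3706 in IP, a difference of -2.50. For every 100 counts of Cox6a1, Cox6a2 had 1.387, 2.261, 1.9 and 1.77 in input and 1.091, 0.8332, 0.5172 and 0.6043 in IP, a difference of -1.30. In all 3 pairs the form known from muscle or testis was the scarcer form, and scarcer still in IP relative to its partner. The partners themselves rose (log2 fold changes of 1.01 for Cox6b1, 1.05 for Cox7a2 and 0.60 for Cox6a1). On their own, Cox7a1 and Cox6a2 did not pass in the main fit.

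The c-ring genes and Cox7a2l shifted the other way and by less. For every 100 counts of Atp5g3, Atp5g1 had 135.8, 134.7, 135.9 and 137.6 in input and 177.3, 172.2, 241.2 and 200.6 in IP (difference of log2 ratios 0.53). Atp5g2 had 45.14 per 100 counts of Atp5g3 in input and 66.21 in IP as group means (0.55), and Cox7a2l had 232.1 and 292.9 per 100 counts of Cox7a2 (0.34). In none of the 6 pairs did the fractions overlap. Each pair gave a 2-sided exact permutation p of 0.0286 (also 0.0286 after Benjamini-Hochberg adjustment over the 6 pairs), the smallest that 70 arrangements of 8 libraries allow. For the pairs of Cox6b2 and Cox7a1 this p was settled beforehand, since both genes already had ranges apart in opposite directions.

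**Figure D3:**
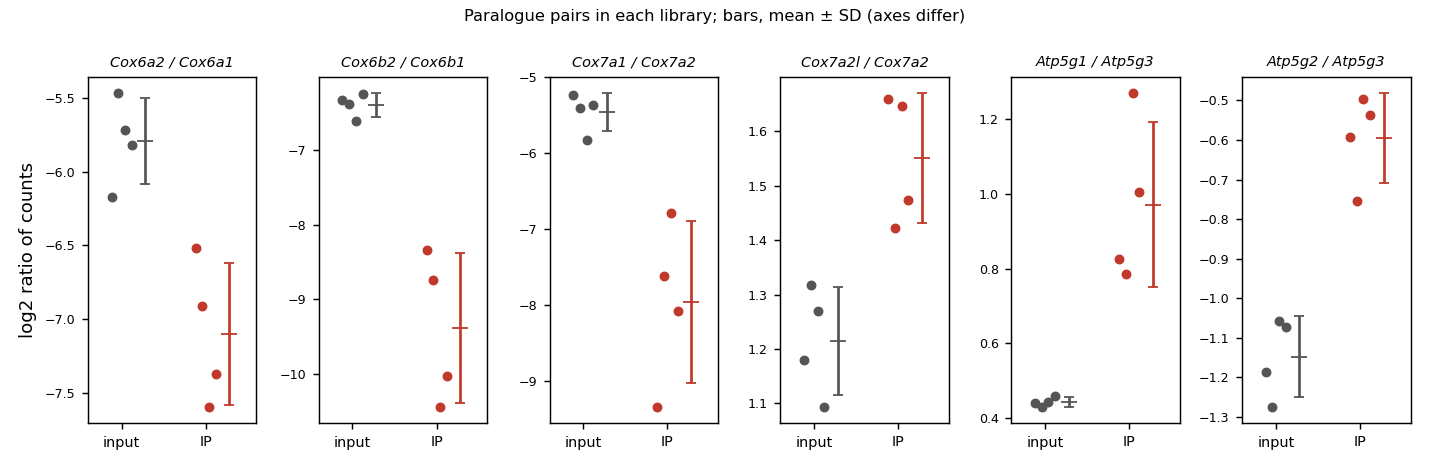
Log2 ratio of paralogous subunit genes within each library (y axis), for the 6 pairs tested, with 1 point for each of 4 input and 4 IP libraries and lines at the group means. Cox6a2, Cox6b2 and Cox7a1 lie lower in IP relative to their partners, whereas Cox7a2l, Atp5g1 and Atp5g2 lie higher.

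Members with short transcripts were more often higher in IP. Of 29 members with a transcript under 1000 bases, 26 were higher and 1 lower (median log2 fold change 0.94). Of 20 members with 1000 bases or more, 10 were higher and 2 lower (median 0.16). Across the 49 members, Spearman's rho of log2 fold change was -0.50 with transcript length and -0.63 with coding length, given as a description, since genes are not independent replicates. The same relation with transcript length was seen over 16901 genes with a gene model (rho = -0.23). Among 452 protein-coding genes under 750 bases, members included, 56.2% were higher, with a median of 0.83, beside 21 of 24 members with a median of 0.99. Between 1500 and 3000 bases 26.9% of 5205 genes were higher (median 0.07), beside 3 of 10 members (median 0.05).

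**Figure D4:**
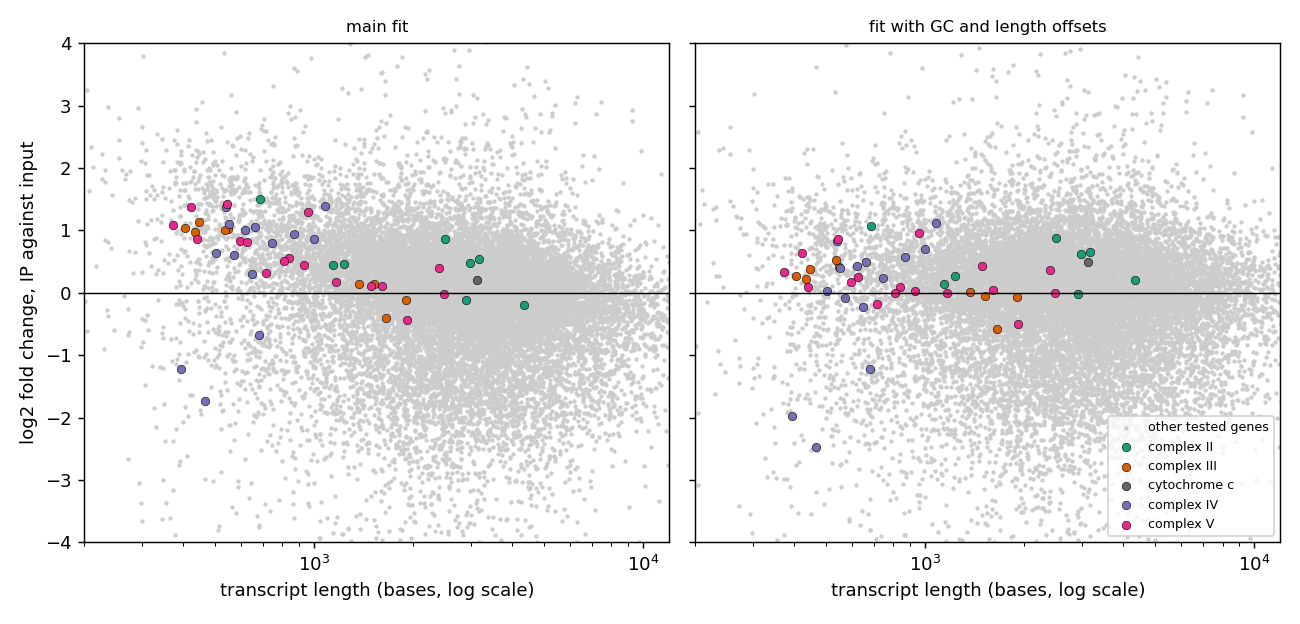
Log2 fold change (IP over input, y axis) against transcript length in bases (log x axis) for the 49 members, coloured by complex, over all other tested genes in grey. The left panel shows the main fit and the right panel the fit with length and GC offsets. In the left panel members under 1000 bases lie mostly between 0 and 1.5 and longer members nearer 0. In the right panel Spearman's rho with transcript length is -0.01 over members. The most extreme of the other genes fall outside the axes.

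When the fit took length and GC content into account through offsets for each library, the median difference over members became smaller, though not that of every member. With these offsets 25 members were higher and 7 lower, against 25.4% and 19% of all genes, and the median log2 fold change was 0.24. All 5 supernumerary genes of complex III stayed higher (0.22 to 0.52), as did Cox7a2l (1.12), Sdhaf4 (1.07), Atp5j2 (0.96), Atp5l (0.87), Cox7c (0.83), Cox7b (0.70) and Atp5e (0.63). Atp5b (-0.50), Uqcrc1 (-0.57) and Cox6b2 (-2.48) stayed lower, each further from 0 than without offsets. Cycs (0.49), Sdhaf2 (0.62) and Sdhc (0.65) also had larger values with the offsets.

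In complex V 6 of 17 genes were higher with offsets instead of 13, Atp5s (0.42) among them, beside 25.4% of all genes. Atp5d (0.02), Atp5j (0.003), Atp5o (0.09), Atp5g1 (0.18), Atp5g2 (0.10), Atp5sl (0.37) and Atp5c1 (-0.01) no longer passed, nor did Cox6c (0.04), Cox6a1 (-0.08) and Sdhb (0.14). Cox5a (-0.22, adjusted p = 0.0116) and Atp5g3 (-0.19, adjusted p = 0.0427) turned to lower, and Cox7a1 (-1.98) and Cox6a2 (-1.23) passed as lower. With offsets, rho with transcript length was -0.01 over members, while rho with coding length was -0.41.

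The promoters of the members were also read for words that bind known regulators of respiratory genes. RefSeq promoters (GRCm38.p6, from 250 bases before to 50 after the start) were found for 40 members. The NRF1 word, 10 bases long with any base in the sixth place, was searched on both strands and stands in capitals in the sequences of Atp5h, Cox6a1, Sdhd and Sdha. It occurred in 12 of them (30%) and in 10.3% of 11663 tested genes. The ETS word CCGGAAG, which GABP binds, occurred in 15 (37.5%, against 17.6%), and the YY1 word AAGATGGC in 4 (10%, against 4.66%). Of the 12 members with the NRF1 word 9 were higher in IP, 1 lower (Uqcrc1) and 2 not past, and of the 15 with the ETS word 14 were higher and 1 was not past. Of all 40 members with a promoter 31 were higher and 3 lower. A word found is a description of the sequence and no evidence of binding, and its bearing on IP against input was not tested.

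The following stretches, 5′ to 3′ on the gene's own strand, show both words in 3 of the 5 members that hold both, and the NRF1 word repeated in Sdha, which did not pass. Of those 5, Atp5h, Cox6a1, Sdhd and Atp5k were higher in IP, and Sdhaf3 did not pass. The stretches were picked after the values were seen. Capitals mark the NRF1 word and the ETS word, the latter read as CTTCCGG, its reverse complement.
Atp5h, chr11:115419945-115420066, minus strand: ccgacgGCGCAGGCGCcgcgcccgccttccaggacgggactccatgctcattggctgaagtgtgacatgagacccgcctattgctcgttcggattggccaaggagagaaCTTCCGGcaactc
Cox6a1, chr5:115348962-115349126, minus strand: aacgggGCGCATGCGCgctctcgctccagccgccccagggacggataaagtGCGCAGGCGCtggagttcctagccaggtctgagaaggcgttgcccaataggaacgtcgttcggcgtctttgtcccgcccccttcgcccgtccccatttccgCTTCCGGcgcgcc
Sdhd, chr9:50603883-50603934, minus strand: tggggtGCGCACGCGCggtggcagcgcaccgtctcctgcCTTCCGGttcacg
Sdha, chr13:74350281-74350344, minus strand: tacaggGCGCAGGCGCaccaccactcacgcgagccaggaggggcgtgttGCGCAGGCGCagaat
In Atp5h the NRF1 word began 141 bases and the ETS word 38 bases before the start, in Sdhd 79 and 46 bases. Cox6a1 held the NRF1 word at 162 and 117 bases and the ETS word at 16 bases. Sdha held the NRF1 word at 98, 55 and 10 bases before the start, of which the first and the second are shown.

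The partners encoded in mitochondrial DNA behaved unlike the nuclear members. All 6 were lower in IP: mt-Cytb of complex III (-3.85), mt-Co1 (-3.93), mt-Co2 (-4.03) and mt-Co3 (-4.56) of complex IV, and mt-Atp6 (-4.25) and mt-Atp8 (-4.26) of complex V, as log2 fold changes. Their summed level was 23600 to 27300 CPM in input and 1432 to 1782 CPM in IP. These mRNAs are translated inside mitochondria by ribosomes that do not carry RpL10a. Ndufa4, a nuclear subunit of complex IV outside the name rule, rose from 159.8 ± 6.419 to 267 ± 9.822 CPM (0.74 ± 0.06, adjusted p = 2e-06).

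Assembly factors showed higher genes in each complex, beside 24.5% higher and 20.9% lower over all genes. For complex III, 4 of 6 were higher (Uqcc2, 1.17; Uqcc3, 0.92; Bcs1l, which inserts the Rieske protein, 0.87; Uqcc1, 0.28), Ttc19 was lower (-0.44) and Lyrm7 did not pass (0.64, adjusted p = 0.229). The call of Uqcc1 was lost without input 2 (adjusted p = 0.0688) and without input 3 (adjusted p = 0.0536). It was also lost with upper quartile factors (0.14), without a gene filter (0.26) and with the replicate block (0.28). Lyrm7 passed as higher with the offsets and the replicate block together (0.65). For complex IV, 15 of 24 tested assembly and copper delivery genes were higher and 0 lower, against 24.5% and 20.9% of all genes. The smallest p were those of the copper chaperone Cox17 (log2 fold change 1.34) and of Cox16 (1.18). For complex V, Tmem242 (1.61), the ATP synthase inhibitor Atpif1 (1.19) and Tmem70 (0.39) were higher, Atpaf1 was lower (-0.28), and Atpaf2 (0.15) and Fmc1 (0.34) did not pass. Fmc1 passed as higher without IP 1 (0.43) or IP 2 (0.40) and with library totals alone (0.44), and as lower with length and GC offsets (-0.39). Tmem70 lost its call with upper quartile factors (0.26), and Atpaf1 with library totals alone (-0.18). Atpif1 had 181.8 ± 14.18 CPM in input and 416 ± 19.8 CPM in IP.

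In ubiquinone synthesis 4 of 13 genes were higher (among them Coq4, 0.92, and Coq10a, 0.36) and 1 lower (Coq8a, -1.45), against 24.5% and 20.9% of all genes. With length and GC offsets 1 was higher (Coq4) and 1 lower, and Coq10a did not pass (0.13, adjusted p = 0.382). The call of Coq10a was lost without input 1 (adjusted p = 0.0534) and without input 2 (adjusted p = 0.0708). It was also lost with upper quartile factors (0.22), without a gene filter (0.34) and with the replicate block (0.36). Hccs, which attaches haem to cytochrome c, did not pass (0.09, adjusted p = 0.661). Of 12 regulators of respiratory gene transcription 0 were higher and 1 was lower, against the same 24.5% and 20.9% of all genes. The lower gene was the coactivator gene Ppargc1a (-0.60 ± 0.14, adjusted p = 0.0039). With the offsets 1 regulator was higher (Yy1, 0.32) and 2 were lower (Ppargc1a, -0.37, and Nrf1, -0.46), against 25.4% and 19% of all genes. Yy1 and Nrf1 are named here after their values were seen.

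Other nuclear mitochondrial genes were also mostly higher in IP, beside 24.5% higher and 20.9% lower over all genes (25.4% and 19% with offsets). The sets were not tested against the members, of which 25 of 49 were higher and 7 lower with offsets (median 0.24). Of 36 complex I subunit genes 30 were higher and 3 lower (median log2 fold change 0.73; 21 and 5 with length and GC offsets, median 0.35). Of 77 mitochondrial ribosomal protein genes 58 were higher and 1 lower (median 0.65; 45 and 1 with offsets, median 0.43).

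The counting of some members has limits. A gene with a mean of at least 1 CPM overlaps 10 of the 49 members on the opposite strand, and without a stated strand setting such reads cannot be told apart. For Atp5d the overlapping gene Cbarp, at 224 CPM in input and 598 CPM in IP, exceeded the member's own mean of 158.3 CPM. For Sdhaf2 it was Cpsf7 (41.8 and 48.6 CPM), beside a member mean of 34.83 CPM. Cox4i1 (Emc8), Cox6c (Vps13b), Atp5f1 (Wdr77), Atp5j (Gabpa), Atp5a1 (Haus1), Cox5a (Gm26631), Uqcrb (Gm10767) and Uqcrc2 (Pdzd9) exceeded their overlapping genes. Cox4i1 is also overlapped on its own strand by Gm20388 (9.24 CPM in input and 9.93 in IP), which no strand setting separates. Many respiratory genes also have processed copies in the genome, between which estimated counts divide reads by a model.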

How the data were processed

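RNA sequencing of ribosome-bound (IP) and homogenate (input) RNA was used, 4 libraries each, grouped by sample title. The authors deposited estimated counts for each gene, without normalization, made with Salmon 0.14.1 on GRCm38.p6, per the submitters' processing notes. Which annotation release, trimming and strand option went into them is not given in the labels used. Members and lists were chosen with earlier results of these data known. All members could be named, and from other lists the 2 genes with the smallest p in each direction, or every gene of lists of 6 or fewer.

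Counts were rounded and tested with edgeR 4.0.16 (quasi-likelihood, filterByExpr with a minimum count of 10, TMM factors, Benjamini-Hochberg over 17000 genes, threshold 0.05). The code was also run on simulated data with 200 genes changed and no trend with length or GC content. Differences in these data were far wider, so that run cannot speak for scaling or error rates here. CPM values use TMM-scaled library sizes. A standard error (SE) is that of the fit. Ratios of paralogues added 0.5 to counts. Coordinates, transcript lengths and GC content came from GENCODE M21 (GRCm38), with 1 transcript a gene, and promoters from RefSeq. Fmc1, Coq8a and Coq8b were matched through RefSeq synonyms (1110001J03Rik, Adck3 and Adck4 in the table). Alternatives were other scalings, filters and tests (DESeq2 1.42.0, limma 3.58.1), a replicate block, length and GC offsets (mgcv 1.9.3) and leaving out each library. Replicates were separate pools of mice. Totals of 39902127 to 74607637 counts leave the members of a few CPM the least precise.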

Additional observations from a re-analysis of the deposited data

Results flagged for a closer look

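Of 98 groups of 4 libraries checked (each member in each fraction), 7 had a library far from the other 3, where chance alone gives about 1 in 20. In IP, Sdhaf4 had 38.09 CPM in IP 1, above the 28.99 to 29.32 CPM of the others. IP 4 stood high for Cox6a1, with 414 CPM against 344.5 to 352.9, and for Cox5a, with 153.9 CPM against 134.4 to 137.4. In input, Cox7a2l had 211.5 CPM in input 3, above 187.5 to 190.6 in the others, and Cyc1 had 79.42 CPM in input 2, above 72.59 to 73.37. Atp5c1 was low in input 2, with 167.4 CPM against 173.7 to 175, and Uqcrc2 was low in input 4, with 83 CPM against 85.84 to 86.23. Without the library in question, the calls of Sdhaf4, Cox6a1, Cox5a and Cox7a2l held, and Cyc1 and Uqcrc2 still did not pass. Atp5c1 lost its call without input 2.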

How the results depend on the processing

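Over 18 alternatives, 22 of the 36 members higher in IP and 2 of the 3 lower kept their call in every one. Members higher numbered 31 with upper quartile factors (19.7% of all genes were higher), 33 with RLE factors (23.3%), 33 without a gene filter (13.9%), 36 with DESeq2 (19.6%), 36 with limma-voom (24%), 39 with library totals alone (28.4%) and 25 with length and GC offsets (25.4%). Members lower numbered 6 with upper quartile factors (25.8% of all genes were lower) and 6 with DESeq2 (22.2%). They numbered 7 with the offsets (19%) and 7 with the offsets and the replicate block (19.8%). A 2-fold demand left 14 higher and 1 lower, against 8.37% and 12.3% of all genes. Upper quartile factors moved the median of all genes from -0.01 to -0.15 and that of members from 0.55 to 0.42, and 43.3% of all called genes were then higher in IP, against 54.1%. That share was 61.6% with library totals alone, with medians of 0.09 over all genes and 0.65 over members.

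Leaving out 1 library gave 32 to 36 members higher and 2 to 4 lower, and 3661 to 4508 genes higher and 2862 to 4230 lower over all. The differences of log2 ratios then ran from -1.497 to -1.138 for Cox6a2, -3.334 to -2.635 for Cox6b2, -2.888 to -2.035 for Cox7a1, 0.2955 to 0.3785 for Cox7a2l, 0.4281 to 0.5901 for Atp5g1 and 0.5101 to 0.6058 for Atp5g2, where 7 libraries cannot give an exact permutation p under 0.0571.

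Same-numbered IP and input libraries correlated at 0.07, 0.05, 0.06 and 0.08, each IP library best with its own number, but the libraries are known to share only a number. With the replicate block 36 members were higher and 3 lower, against 22.8% and 21.8% of all genes. The paired differences of log2 ratios were -1.30 (Cox6a2), -2.99 (Cox6b2), -2.50 (Cox7a1), 0.34 (Cox7a2l), 0.53 (Atp5g1) and 0.55 (Atp5g2), each with an exact sign-flip p of 0.125, the smallest that 4 pairs allow.

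Signs turned for these log2 fold changes, and the cause was not tested. Atp5a1 was 0.081 with library totals alone, and -0.062 to 0.032 with 1 library left out, being above 0 without input 2, input 4 or IP 3. With upper quartile factors Atp5f1 was -0.018, Atp5s -0.019, Uqcrfs1 -0.00034 and Hccs -0.050. With the offsets, and with the offsets and the replicate block, Atp5c1 was -0.0061 and -0.0067, Atp5g3 -0.187 and -0.190, Cox5a -0.222 and -0.222, Cox6a1 -0.078 and -0.080, Cyc1 -0.053 and -0.056, Sdhaf3 0.20 and 0.18, and Fmc1 (1110001J03Rik) -0.39 and -0.41. With 1 library left out Hccs ran from -0.037 (without IP 4) to 0.143, and Atpaf2 from -0.164 (without IP 3) to 0.255. Atpaf2 was -0.0138 with the offsets and the block.

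Depth limits Cox6b2, Cox7a1, Cox6a2 and Sdhaf1 most, which rest on a few CPM. The libraries hold 1 genotype, so no effect of the Mff deletion was measured.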
